A study of Mus musculus with 2 samples.

Results

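The 10 genes described here either restrain Wnt signalling or are known to respond to it. They are the genes of 6 secreted antagonists, *Sfrp1*, *Sfrp2*, *Sfrp5*, *Dkk2*, *Dkk3* and *Wif1*, and of 4 products known as feedback regulators or readouts of the pathway, *Axin2*, *Nkd1*, *Lef1* and *Notum*. They were taken by symbol from the deposited count tables, where they make up 10 of the 31053 features listed. The genes were followed in single-cell RNA-seq of mouse eyecups at E13.5, in 1 control library and 1 library of the *Six3* and *Six6* double knockout (DKO). The DKO embryo carried *Six3*F/F, 2 floxed alleles, *Six6*-/-, a germline null, and a-Cre, a transgene that makes Cre and GFP from the alpha enhancer of *Pax6* in the peripheral retina. The control was a littermate, *Six3*+/-;*Six6*+/-, which had no a-Cre and is heterozygous at both loci rather than wild-type. Its *Six3* null allele was traced in the study's methods to stray Cre activity in the germline. Each library held the eyecups of 1 embryo, with neural retina, lens and blood, and the DKO embryo was picked by its GFP-positive retinal rosettes before genotyping. By genotype no DKO cell has an intact *Six6*, whereas *Six3* is deleted only where Cre was active, so that the DKO library mixes cells with and without *Six3*.

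Wnt ligands are lipid-bearing secreted proteins that bind Frizzled receptors and the co-receptors Lrp5 and Lrp6. In the canonical branch, binding stabilises beta-catenin, which enters the nucleus and activates genes together with proteins of the Tcf and Lef family. The Sfrp proteins and Wif1 bind the ligands outside the cell, Dkk2 acts on Lrp5 and Lrp6, Dkk3 is a divergent relative of the Dkk family, and Notum is an enzyme that removes the lipid from Wnt ligands. Axin2 is a scaffold of the complex that destroys beta-catenin and Nkd1 binds Dishevelled, and both genes are induced by the pathway in many tissues. Lef1 is a nuclear partner of beta-catenin and often a target of it. In the developing eye, canonical Wnt signalling is known for its place in the ciliary margin and the pigment epithelium, at the edge of the neural retina, where its activity is normally higher than in the central retina.

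The control library held 10315 cells and 85589515 UMIs (unique molecular identifiers, 1 for each captured transcript molecule), and the DKO library 12672 cells and 85173276 UMIs. The study's cell filter left 9822 and 12146 cells, with medians of 7620 and 5879 UMIs per cell. The libraries had 22 cell barcodes in common, of which 20 were among the cells kept. A gene's level is the sum of its UMIs over a group of cells, per 1000000 UMIs summed over all genes there (CPM). A ratio is the log2 of the level in the DKO library over that in the control library. Each genotype had 1 library, so no test between genotypes was possible and none is given. Intervals, in parentheses, are 95% intervals that cover counting error only, and neither they nor the cells hold any variation between embryos. Cells were clustered again without the 10 genes and without the other Wnt pathway genes listed further on. A class bears its name with the word like, from marker genes. Clusters 0 and 8, with 2081 control and 2106 DKO cells, were naive-like, which means like the uncommitted progenitors of the retina, and all 6 naive markers were higher in them than elsewhere. Cluster 1 (1327 and 1285 cells) had the same 6 markers, but an endothelial marker, *Kdr*, was among its 10 leading genes, so it was left unnamed and is shown beside the naive-like cells. Cluster 4 (912 and 1101 cells) carried markers of the pigment epithelium and of the ciliary margin together and is called margin and pigment. The deleted genes *Six3* and *Six6* are read from 3′ transcript ends, which need not lie in the deleted parts. In naive-like cells *Six6* stood at 362 CPM in the control and 47.6 CPM in the DKO library, and *Six3* at 316 and 235 CPM.

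In the control library the antagonists were spread over the eyecup in different ways. *Sfrp2* (ENSMUSG00000027996, chr3:83766321-83774316 of GRCm38, plus strand) was at its highest in progenitors, with 2143 CPM in cluster 1, 1945 CPM in naive-like cells and 1158 CPM in margin and pigment cells. It was lower in neurogenic-like cells, like progenitors about to leave the cycle, at 370.1 CPM, in lens-like cells at 320.3 CPM, in amacrine- or horizontal-like cells at 217 CPM, in photoreceptor-like cells at 204 CPM and in ganglion-like cells at 61.7 CPM. Of the neighbours in this order only the amacrine- or horizontal-like and photoreceptor-like cells had overlapping counting intervals. *Sfrp1* (ENSMUSG00000031548, chr8:23411502-23449632, plus strand) had a different pattern. Its level was 598 CPM in lens-like cells, 103 CPM in margin and pigment cells, 59.8 CPM in naive-like cells, 22.6 CPM in neurogenic-like cells and 18.4 CPM in ganglion-like cells. *Dkk3* (ENSMUSG00000030772, chr7:112116017-112159057, minus strand) was at 474 CPM in cluster 1 and 468 CPM in naive-like cells, which did not differ beyond counting error. It followed at 372 CPM in amacrine- or horizontal-like cells, 350.5 CPM in margin and pigment cells, 228 CPM in neurogenic-like, 162 CPM in lens-like and 45.5 CPM in ganglion-like cells. The lens was therefore the richest in *Sfrp1* and the progenitors were the richest in *Sfrp2* and *Dkk3*, among the classes named here.

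Of the response genes *Axin2*, *Lef1* and *Notum* were sparse in the control library, as was the antagonist *Wif1*, while *Nkd1* was not. *Axin2* (ENSMUSG00000000142, chr11:108920349-108950783, plus strand) reached 10.7 CPM in lens-like, 6.10 CPM in margin and pigment, 2.98 CPM in naive-like, 2.82 CPM in ganglion-like and 2.51 CPM in neurogenic-like cells. The last 3 had overlapping intervals, and photoreceptor-like, amacrine- or horizontal-like and mesenchyme-like cells had 4, 6 and 4 UMIs. *Lef1* (ENSMUSG00000027985, chr3:131110471-131224356, plus strand) was highest among the retinal classes in margin and pigment cells, at 20.6 CPM, against 5.80 CPM in naive-like, 4.18 CPM in neurogenic-like, 2.49 CPM in ganglion-like and 1.79 CPM in cluster 1 cells. *Wif1* (ENSMUSG00000020218, chr10:121033960-121100650, plus strand) came mostly from margin and pigment cells, which held 53 of the 63 *Wif1* UMIs of all control cells, at 6.34 CPM. *Notum* (ENSMUSG00000042988, chr11:120653788-120661175, minus strand) stood at 25.6 CPM in amacrine- or horizontal-like cells, from 18 UMIs, at 7.89 CPM in margin and pigment, 5.33 CPM in neurogenic-like and 2.07 CPM in naive-like cells. *Nkd1* (ENSMUSG00000031661, chr8:88521354-88594884, plus strand) was the most even of the response genes over the retinal classes, between 22.8 CPM in amacrine- or horizontal-like cells and 49.3 CPM in cluster 1.

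**Figure D1:**
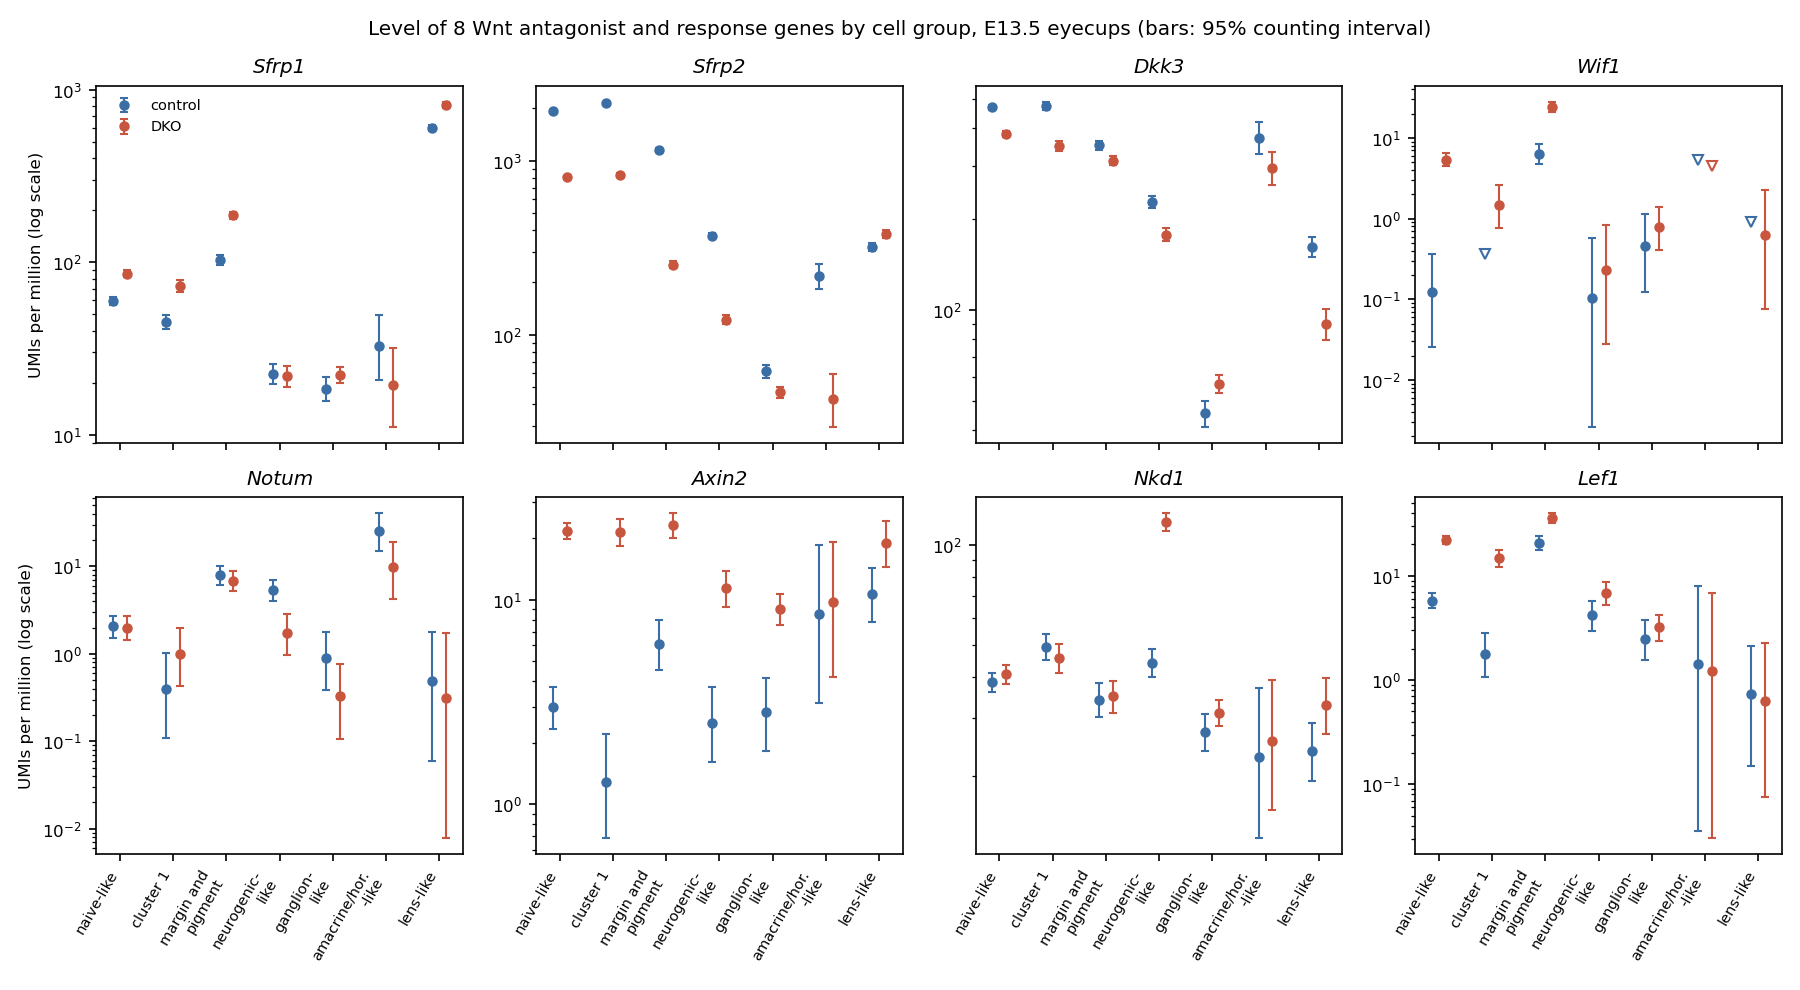
Level of 8 of the 10 genes in 7 cell groups (horizontal axis) as CPM, on log scales that differ between panels, in the control (blue) and DKO (red) library. Bars are 95% counting intervals, and open triangles mark the upper limit where a library had 0 UMIs; *Sfrp2* lies lower in the DKO library in 6 of the 7 groups, and *Axin2* lies higher in all 7, with overlapping intervals in amacrine- or horizontal-like cells.

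In naive-like cells of the DKO library, *Sfrp2* was lower and *Wif1*, *Axin2* and *Lef1* were higher than in control cells, each by more than 2-fold. Of the 10 genes, 8 had at least 50 UMIs in the libraries together and count as measured. 1 of these 8 was at least 2-fold lower, where the share among all 12120 measured genes was 1.11%, and 3 were at least 2-fold higher, where that share was 2.83%. *Wif1*, with 3 control and 117 DKO UMIs, passed that limit through the DKO library alone, so the rule could only call it higher. The median log2 ratio of the 8 genes was 0.30, against 0.02 for all measured genes. Among the 12120 genes ordered by ratio, *Wif1* was the 19th, *Axin2* the 50th and *Lef1* the 101st from the top, and *Sfrp2* the 66th from the bottom.

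Among the antagonists, *Sfrp2* gave 46959 UMIs in the control and 17400 in the DKO library, or 1945 and 803 CPM. It was 2.42-fold lower in the DKO library, a log2 ratio of -1.28 (-1.30 to -1.25). *Sfrp1* went the other way but stayed within 2-fold, at 59.8 and 85.4 CPM, a ratio of 0.51 (0.41 to 0.62). *Dkk3* had 468 and 383 CPM, a ratio of -0.29 (-0.33 to -0.25). The related ligand-binding genes *Sfrp1* and *Sfrp2* thus lay on opposite sides of 0. *Wif1* had 3 UMIs in the control and 117 in the DKO library, or 0.124 and 5.40 CPM. With so few control UMIs its ratio of 5.44 had an interval from 3.86 to 7.74. *Notum*, the lipid-removing enzyme, had 50 and 43 UMIs, or 2.07 and 1.98 CPM, and its ratio of -0.06 (-0.68 to 0.56) was not distinguishable from 0 at this depth.

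Among the response genes, *Axin2* had 72 UMIs in the control and 472 in the DKO library, or 2.98 and 21.8 CPM. It was 7.31-fold higher in the DKO library, a log2 ratio of 2.87 (2.51 to 3.25). *Lef1* had 140 and 479 UMIs, or 5.80 and 22.1 CPM, and was 3.81-fold higher, with a ratio of 1.93 (1.66 to 2.21). The feedback gene *Nkd1* did not share this difference. It stood at 38.4 and 40.7 CPM, a ratio of 0.08 (-0.05 to 0.22).

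**Figure D2:**
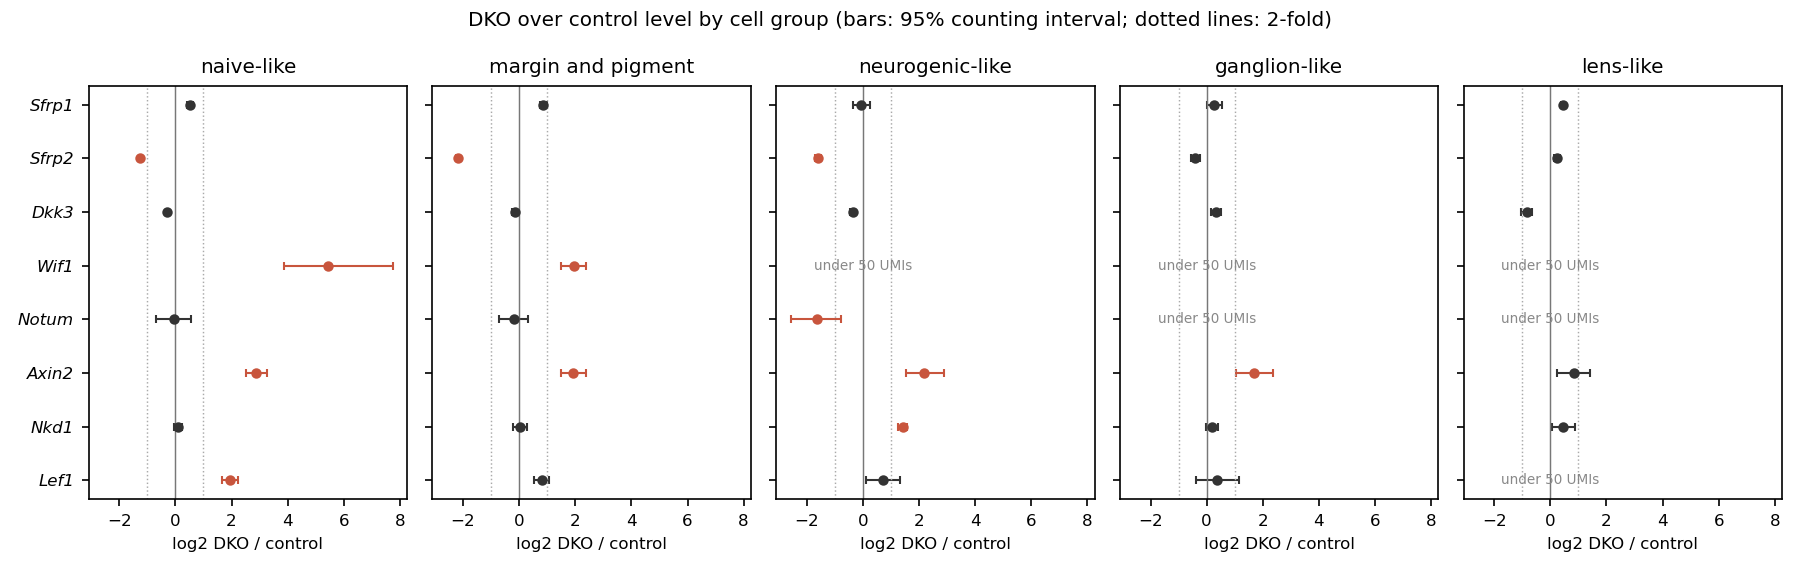
Log2 ratio of the DKO over the control level (horizontal axis) of 8 genes in 5 cell groups, with 95% counting intervals and dotted lines at 2-fold; red points are past 2-fold and genes under 50 UMIs are marked as such. *Sfrp2* is at -1.28 in naive-like, -2.19 in margin and pigment and -1.60 in neurogenic-like cells and at 0.25 in lens-like cells, while *Axin2* is past 2-fold higher in 4 of the 5 groups.

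The difference was seen in each of the clusters with naive markers. In cluster 0, led by histone genes of S phase, *Sfrp2* had 1902 CPM in the control and 774 CPM in the DKO library, and in cluster 8, led by genes of mitosis, 2097 and 915 CPM. In the unnamed cluster 1, led by replication genes such as *Mcm3* and *Mcm6*, it had 2143 and 833 CPM. *Axin2* was close to 22 CPM in the DKO library in all 3, at 21.7, 22.2 and 21.5 CPM, against control levels of 3.23, 2.09 and 1.29 CPM. *Lef1* went from 6.14 to 22.8 CPM in cluster 0, from 4.56 to 19.3 CPM in cluster 8 and from 1.79 to 14.8 CPM in cluster 1. *Wif1* was different in this respect, since 113 of the 117 DKO UMIs of the naive-like cells came from cluster 0 and 4 from cluster 8. In the low-UMI cluster 2 (medians of 1026 and 982 UMIs), 4 genes were measured, of which *Sfrp2* alone was past 2-fold lower (0.599% of all genes) and none was higher (1.42%). In cluster 1, of 6 measured genes 1 was lower (share of all genes 1.15%) and 2 were higher (2.46%), namely *Sfrp2*, *Axin2* and *Lef1*. *Axin2* and *Lef1* had 13 and 18 control UMIs there and were measured through the DKO library.

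Over all retinal cells together, the same 4 genes were past 2-fold, *Sfrp2* lower (1.11% of all genes) and *Wif1*, *Axin2* and *Lef1* higher (5.76%).

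These counts depend on where the border of the naive-like cells is drawn. At clustering resolution 1 the *Sfrp2* ratio was -0.87, and with the libraries merged without integration -0.77, so that no gene was past 2-fold lower under these alternatives, while *Axin2* and *Lef1* stayed past 2-fold higher in each of 13 alternatives. *Wif1* did so in the 9 alternatives that gave it a ratio, but some of these kept the main clusters and did not move the border. In the other alternatives it had under 50 UMIs, or none in 1 library, and so no ratio. Ciliary margin markers also differed between the libraries in the main clustering. All 7 were measured in naive-like cells, 3 of them (*Gja1*, *Msx1* and *Fabp3*) were at least 2-fold higher in the DKO library, and their summed level was 414 CPM in the control and 624 CPM in the DKO library. Of the 7 pigment epithelium markers 3 were measured and 2 were higher, with summed levels of 15.4 and 90.4 CPM. 6 of 7 measured lens markers were lower, with sums of 249.6 and 98.7 CPM, whereas none of the 6 naive markers was past 2-fold, with sums of 2692 and 2646 CPM. The part of these cells in the ratios of the 10 genes was not tested. In bulk sums of this kind, fewer cells expressing a gene and less RNA per cell cannot be told apart.

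**Figure D3:**
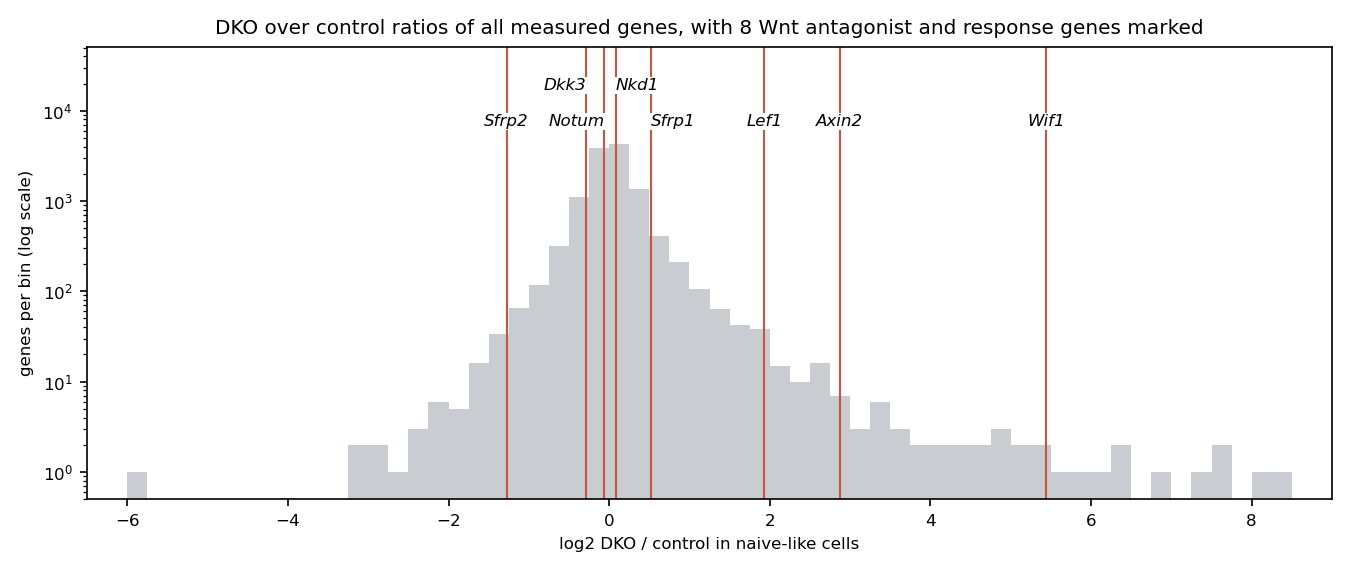
Number of genes per bin (vertical axis, log scale) by their log2 DKO over control ratio in naive-like cells, for the 12113 measured genes with UMIs in both libraries, with red lines at 8 of the 10 genes. *Sfrp2* lies in the lower tail at -1.28, *Lef1* at 1.93, *Axin2* at 2.87 and *Wif1* at 5.44 lie in the upper tail, and *Dkk3*, *Notum*, *Nkd1* and *Sfrp1* lie between -0.29 and 0.51.

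The share of cells with a UMI was compared after each cell was thinned to 2000 UMIs, since naive-like control cells had a median of 10386 and DKO cells of 8904 UMIs. This left out 8 and 9 shallower cells. *Sfrp2* was then seen in 94.1% (93.0% to 95.1%) of the 2073 control cells and in 66.1% (64.0% to 68.1%) of the 2097 cells of the DKO library, and before thinning in 99.3% and 91.1%. Most DKO progenitors therefore still held *Sfrp2* transcripts. *Axin2* was seen in 0.675% (0.370% to 1.13%) of thinned control cells and in 3.96% (3.17% to 4.88%) of thinned DKO cells, or 3.08% and 18.7% before thinning. *Lef1* was seen in 0.772% and 3.72% of thinned cells, and in 5.72% and 17.3% before thinning. *Wif1* was seen in 1 thinned control cell and in 13 thinned DKO cells, or 0.0482% (0.00122% to 0.269%) and 0.620% (0.331% to 1.06%). Red blood-like cells, which should lack these genes, gave the background of free RNA at medians of 8453 and 6343 UMIs. Thinned in the same way, they showed *Sfrp2* in 2.45% and 2.22% (11.3% and 5.59% before thinning), *Axin2* in 0 of 1061 control cells and in 0.370% of DKO cells, and *Lef1* and *Wif1* in none, which allows shares of up to 0.347% and 0.680% by the exact interval.

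Of the 10 genes, 7 had a RefSeq promoter window for GRCm38.p6 (10 windows in all, each the 250 bases before a transcript start); *Sfrp1*, *Dkk3* and *Notum* had none. The windows of the gene that was lower and of the 2 response genes that were higher in DKO naive-like cells are printed here 5′ to 3′, because binding of Lef and Tcf proteins is known to need a short core motif. Capitals mark CTTTG or its reverse complement CAAAG, the shared core of that motif. The *Sfrp2* window is chr3:83766071-83766320, the *Axin2* window chr11:108920099-108920348 and the first of 4 *Lef1* windows chr3:131110047-131110296, all on the plus strand.
Sfrp2: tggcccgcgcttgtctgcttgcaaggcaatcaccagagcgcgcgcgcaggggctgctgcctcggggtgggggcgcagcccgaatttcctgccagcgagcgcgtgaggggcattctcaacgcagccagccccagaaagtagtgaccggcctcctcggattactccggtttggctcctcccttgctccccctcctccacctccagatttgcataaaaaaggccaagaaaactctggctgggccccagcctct
Axin2: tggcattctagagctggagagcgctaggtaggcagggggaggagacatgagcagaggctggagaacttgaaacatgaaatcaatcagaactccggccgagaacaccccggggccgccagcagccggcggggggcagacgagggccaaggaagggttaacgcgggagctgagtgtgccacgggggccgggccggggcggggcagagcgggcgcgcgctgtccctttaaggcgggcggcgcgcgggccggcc
Lef1: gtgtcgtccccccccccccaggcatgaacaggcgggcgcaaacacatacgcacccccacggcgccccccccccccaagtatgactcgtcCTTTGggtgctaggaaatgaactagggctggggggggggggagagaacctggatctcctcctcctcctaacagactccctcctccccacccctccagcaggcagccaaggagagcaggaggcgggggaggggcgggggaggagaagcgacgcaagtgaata

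The longer form CTTTGAT, searched on both strands, was in 0 of the 10 windows and in 3.21% of 32851 windows of the same length. The shorter CTTTG, which overlaps every CTTTGAT, was in none of the *Sfrp2* and *Axin2* windows and 1 time in the *Lef1* window shown, and 48.6% of all windows hold it. The windows were GC-rich, at 63.6% for *Sfrp2*, 69.2% for *Axin2* and 66.4% for *Lef1*, against a median of 52.4%. The letters are a description of these windows only.

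Margin and pigment cells showed the largest *Sfrp2* ratio of the 4 large classes of retinal cells and the highest *Wif1* levels. *Sfrp2* had 9682 UMIs in the control and 2326 in the DKO library, or 1158 and 253 CPM. It was 4.57-fold lower, a ratio of -2.19 (-2.26 to -2.13), the 11th lowest of 11043 measured genes. *Wif1* had 53 and 223 UMIs, or 6.34 and 24.3 CPM, a ratio of 1.94 (1.5 to 2.40). *Axin2* had 6.10 and 23.2 CPM, a ratio of 1.93 (1.48 to 2.40). Of 8 measured genes 1 was lower past 2-fold (1.39% of all genes) and 2 were higher (2.93%). *Lef1* was higher but within 2-fold, at 20.6 and 35.7 CPM, a ratio of 0.80 (0.53 to 1.07). *Sfrp1* likewise had 103 and 187 CPM, a ratio of 0.86 (0.74 to 0.98). *Dkk3*, *Nkd1* and *Notum* had ratios of -0.17, 0.03 and -0.20, and the intervals of the last 2 included 0.

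A finer clustering split these cells into a pigmented cluster and an unpigmented one. In the pigmented cluster *Pmel*, a melanosome gene, stood at 451 CPM in the control and 683 CPM in the DKO library, and in the unpigmented one at 2.89 and 41.4 CPM. *Wif1* in control cells lay in the pigmented cluster, with 51 UMIs against 1 in the unpigmented cluster. In DKO cells it was present in both, with 156 UMIs (33.0 CPM) in the pigmented and 67 UMIs (15.2 CPM) in the unpigmented cluster. The ratio in the unpigmented cluster, 5.85, rests on 1 control UMI and has an interval from 3.32 to 11.17. *Sfrp2* was lower in both, from 1031 to 195 CPM in the pigmented and from 1313 to 309 CPM in the unpigmented cluster, and *Axin2* was at 23.1 and 23.3 CPM in DKO cells. In each of the finer clusters 1 gene was lower (1.49% and 1.13% of all genes) and 2 were higher (2.82% and 2.76%).

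Of the 7 ciliary margin markers 2 were past 2-fold higher in these cells, with summed levels of 1044 and 1909 CPM, and so were 2 of the 7 pigment epithelium markers, with 569 and 1425 CPM. Of the 6 naive markers 3 were lower, with 1793 and 1243 CPM. The part of these markers' cells in the ratios was not tested. When the libraries were merged without integration, the cluster with these markers held 43 control and 1398 DKO cells, and 6 of the genes changed sign. The ratios were then 1.91 for *Sfrp2*, 1.92 for *Dkk3*, -1.32 for *Sfrp1*, -2.13 for *Wif1*, -0.37 for *Axin2* and -0.72 for *Lef1*. The 43 control cells were pigmented, with *Pmel* at 3769.8 CPM against 313 CPM in the DKO cells.

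In neurogenic-like cells (1300 control and 1642 DKO cells) *Nkd1* joined the genes that were higher, and *Notum* those that were lower. *Nkd1* had 420 UMIs in the control and 1029 in the DKO library, or 43.9 and 117 CPM, a ratio of 1.42 (1.25 to 1.59). It was higher in both clusters of the class, from 44.0 to 122 CPM in cluster 3 and from 43.8 to 107 CPM in cluster 9. After thinning, *Nkd1* was seen in 9.84% (8.26% to 11.6%) of control cells and in 20.2% (18.3% to 22.3%) of DKO cells, with 19 and 59 shallower cells left out, and in 25.8% and 38.5% before thinning. *Axin2* had 24 and 100 UMIs, or 2.51 and 11.4 CPM, a ratio of 2.18 (1.53 to 2.89). *Sfrp2* had 370.1 and 122 CPM, a ratio of -1.60 (-1.70 to -1.5). *Notum* had 51 and 15 UMIs, or 5.33 and 1.71 CPM, a ratio of -1.64 (-2.58 to -0.79). Of 7 measured genes 2 were lower (1.47% of all genes) and 2 higher (3.31%). *Axin2*, with 24 control UMIs, and *Notum*, with 15 DKO UMIs, were each measured through the library in which they were higher. *Lef1* was within 2-fold, at 4.18 and 6.84 CPM, a ratio of 0.71 (0.11 to 1.33). *Dkk3* stood at 228 and 177 CPM, and *Sfrp1* at 22.6 and 21.8 CPM. Of the markers of the thalamic eminence and Cajal-Retzius cells, cells of the forebrain, 5 were measured in this class and 4 were higher in the DKO library, with sums of 135 and 313 CPM, and their part in the *Nkd1* ratio was not tested.

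Ganglion-like cells (1067 control and 2197 DKO cells) shared only the *Axin2* difference past 2-fold. *Axin2* had 25 and 137 UMIs, or 2.82 and 9.0 CPM, a ratio of 1.67 (1.05 to 2.35). Of 6 measured genes 0 were lower (1.29% of all genes) and 1 was higher (3.84%). With 25 control UMIs *Axin2* was measured there through the DKO library. *Sfrp2* had 61.7 and 46.8 CPM, a ratio of -0.40 (-0.56 to -0.23). It went from 49.9 to 25.3 CPM in cluster 5 and from 80.3 to 68.1 CPM in cluster 6. In both libraries *Sfrp2* was lower in ganglion-like than in macrophage-like cells, which had 139 and 89.2 CPM, a ratio of -0.64 (-1.23 to -0.05). It was higher than in red blood-like cells, which had a ratio of -0.69 (-1.23 to -0.18). The part of free RNA in the ganglion-like *Sfrp2* ratio was not tested. *Dkk3* had 45.5 and 56.8 CPM, a ratio of 0.32 (0.15 to 0.49). *Nkd1* stood at 27.2 and 31.0 CPM, and *Lef1* at 2.49 and 3.22 CPM. Of the 5 measured markers of the thalamic eminence and Cajal-Retzius cells 3 were higher, with sums of 390.5 and 449 CPM, both measured pigment epithelium markers were higher, with 1.02 and 11.04 CPM, and of 4 measured amacrine or horizontal markers 2 were lower and 1 higher, with 141 and 73.2 CPM. Their part in the ratios was not tested. Cluster 14, in which 93.8% of control and 90.2% of DKO cells were called doublets, had ganglion markers and was kept apart. Of 6 measured genes there, *Sfrp2* was past 2-fold lower (0.778% of all genes) and *Sfrp1* and *Axin2* were higher (2.49%). *Axin2*, with 3 control and 49 DKO UMIs in that cluster, was measured through the DKO library. With it added, *Sfrp2* in ganglion-like cells reached a ratio of -1.06 and *Dkk3* one of 0.05 (-0.07 to 0.17).

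The smaller retinal classes carried few UMIs. In amacrine- or horizontal-like cells (121 and 192 cells) *Sfrp2* had 152 and 35 UMIs, or 217 and 42.6 CPM, a ratio of -2.34 (-2.92 to -1.81). It was 1 of 2 measured genes there and the only one past 2-fold (1.27% of all genes lower, 1.25% higher). The other, *Dkk3*, had 372 and 295 CPM, a ratio of -0.33 (-0.59 to -0.08). *Notum* had 18 and 8 UMIs, under the limit of 50. In photoreceptor-like cells (86 and 114 cells) *Sfrp2* had 204 and 124 CPM and *Dkk3* 91.7 and 54.0 CPM, and neither was past 2-fold (0.644% and 1.04% of all genes). Cluster 10, with 656 DKO and 0 control cells, was led by *Rspo3*, *Lhx9*, *Tbr1* and *Eomes* and left unnamed. The highest of the 10 genes in it were *Nkd1* at 25.4 CPM, *Dkk3* at 20.8 CPM, *Sfrp2* at 18.2 CPM and *Axin2* at 12.9 CPM, the last from 39 UMIs. *Dkk3* and *Sfrp2* lay below their levels in macrophage-like DKO cells, 54.3 and 89.2 CPM, and the part of free RNA was not tested. *Lef1* had 6 UMIs there and *Wif1* 2.

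In lens-like cells (213 control and 256 DKO cells) *Sfrp2* was not lower in the DKO library. It had 1317 UMIs in the control and 1217 in the DKO library, or 320.3 and 379.6 CPM, a ratio of 0.25 (0.13 to 0.36). All measured genes of the lens-like cells had a median ratio of 0.17, and relative to it *Sfrp2* was at 0.08 (-0.04 to 0.19). Without integration its ratio was -0.11 (-0.22 to 0.00), so its direction in the lens depends on the processing. The lens is outside the domain of a-Cre as the study describes it, but it carries the *Six6* null as well, and *Six6* stood at 16.3 and 4.68 CPM there. *Sfrp1* had 598 and 813 CPM, a ratio of 0.44 (0.36 to 0.52), and 0.27 relative to all genes. *Dkk3* had 162 and 89.8 CPM, a ratio of -0.85 (-1.05 to -0.65), and -1.02 relative to all genes, which is past 2-fold lower. *Axin2* had 44 and 61 UMIs, or 10.7 and 19.0 CPM, a ratio of 0.83 (0.25 to 1.42). Without that adjustment none of the 5 measured genes was past 2-fold (1.55% of all genes lower, 2.47% higher). Of the 8 lens markers 6 were past 2-fold lower in the DKO library, with sums of 90351 and 42071 CPM, and the median depth of the cells was 18266 and 10156 UMIs. Their part in the ratios was not tested.

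Of the other members, *Dkk2* (ENSMUSG00000028031, chr3:132085292-132180304, plus strand) had 27 UMIs in all control cells and 55 in all DKO cells. Mesenchyme-like cells, of which there were 4 in the control and 32 in the DKO library, held 11 of the 27 and 43 of the 55. In naive-like cells it had 7 and 6 UMIs. *Sfrp5* (ENSMUSG00000018822, chr19:42197971-42202252, minus strand) had 2 UMIs in all control and 1 in all DKO cells. In naive-like cells it had 0 UMIs in both libraries, and with a floor of 3 UMIs a count of 0 allows up to 0.124 CPM in the control and 0.138 CPM in the DKO library.

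Since Cre acts in part of the retina, DKO cells with naive markers (naive-like and cluster 1, 3391 cells) were split by *Six3*. DKO cells were clustered alone, and where a subcluster had less than 50% of the *Six3* of control cells its cells were called Six3-low. The Six3-low part held 1283 cells, 37.8%, and the other part 2108 cells. *Six3* itself, which made the split, stood at 99.7 CPM in the Six3-low part, 314 CPM in the other part and 308 CPM in control cells. *Six6* was at 33.4 and 52.4 CPM in these parts, against 368 CPM in control cells, so both parts were low in *Six6*.

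*Sfrp2* was lowest where *Six3* was low, at 473 CPM, against 1021 CPM in the other DKO cells and 2003 CPM in control cells. The ratio between the DKO parts was -1.11 (-1.15 to -1.07). *Axin2* went the opposite way, with 30.2 CPM in the Six3-low part, 16.5 CPM in the other part and 2.48 CPM in control cells, a ratio between the parts of 0.87 (0.65 to 1.10). *Lef1* had 26.1, 16.4 and 4.62 CPM, a ratio of 0.67 (0.43 to 0.91). For each of these 3 genes the other part, taken as a whole, lay between the Six3-low part and the control cells, but its subclusters were unlike one another. *Wif1* had 2.73 CPM in the Six3-low part, 5.35 CPM in the other part and 0.0877 CPM in control cells. *Notum* was lower in the Six3-low part, with 6 and 45 UMIs, or 0.528 and 2.46 CPM, against 1.58 CPM in control cells. *Dkk3* had 323, 406 and 469.7 CPM (Six3-low, other, control), *Nkd1* 35.8, 45.8 and 41.6 CPM, and *Sfrp1* 71.9, 88.3 and 55.4 CPM.

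**Figure D4:**
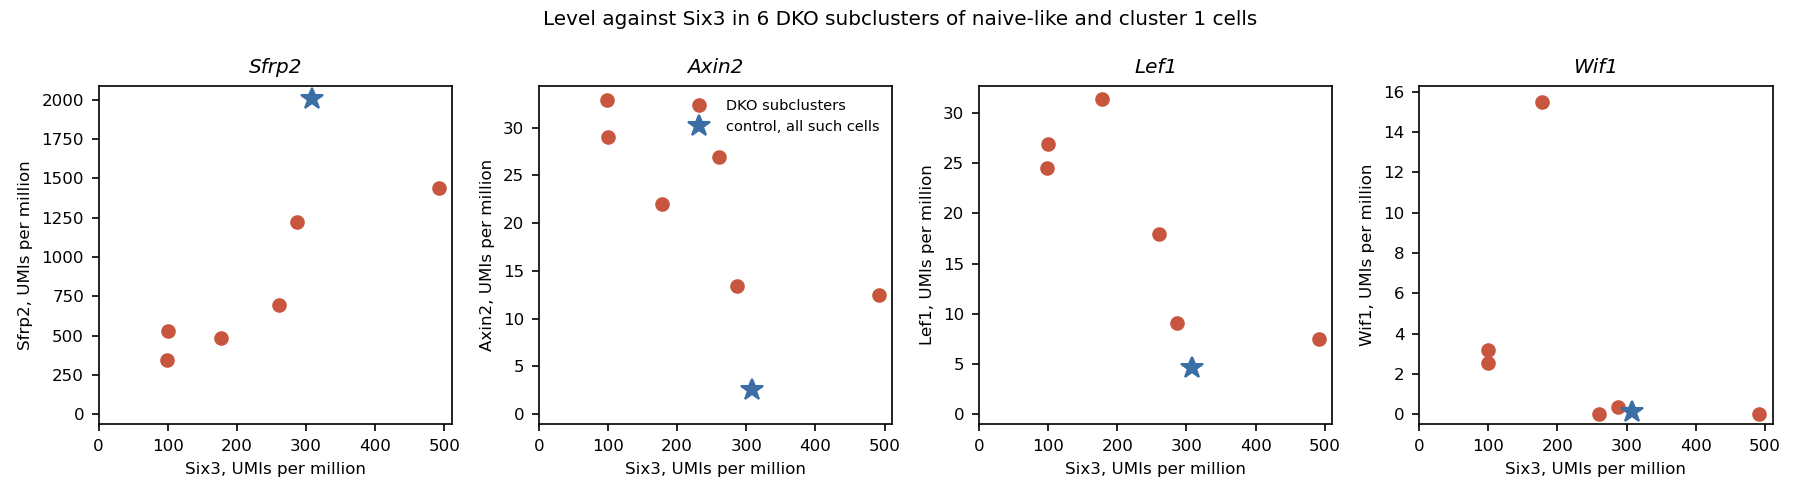
Level of *Sfrp2*, *Axin2*, *Lef1* and *Wif1* (vertical axes, CPM) against *Six3* (horizontal axes) in 6 DKO subclusters (red circles) and in all control cells with naive markers (blue star). *Sfrp2* ranges from 342 to 1435 CPM and is highest, and *Axin2* and *Lef1* are lowest, in the pair of subclusters with the most *Six3*, and *Wif1* is highest in 1 subcluster with *Six3* at 178 CPM.

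Among the 6 DKO subclusters with at least 50 such cells, the correlation with *Six3* was 0.90 for *Sfrp2*, 0.79 for *Nkd1*, 0.64 for *Dkk3*, -0.86 for *Axin2*, -0.84 for *Lef1*, -0.61 for *Wif1* and -0.34 for *Sfrp1*, as a description over 6 points of 1 library. The subclusters with the most *Six3* (287 and 492 CPM) had *Sfrp2* at 1224 and 1435 CPM and *Axin2* at 13.4 and 12.5 CPM. *Axin2* there was still above the 2.48 CPM of control cells. The cut used whole subclusters. Over all their cells, those of the 6 nearest the cut had 33.9% of the control *Six3* level inside it, and 52.9% and 56.3% outside it. The subcluster at 52.9% was 89.7% margin and pigment cells, and its 86 cells with naive markers had *Six3* at 261 CPM. The subcluster at 56.3%, with *Six3* at 178 CPM in 492 of the cells, counts in the other part but had *Sfrp2* at 483 CPM and *Axin2* at 22.0 CPM, close to the Six3-low part. It also had *Wif1* at 15.5 CPM, *Sfrp1* at 139 CPM, *Lef1* at 31.3 CPM and *Notum* at 6.62 CPM. Its *Wif1*, *Sfrp1*, *Lef1* and *Notum* levels were the highest of the 6. In margin and pigment cells the same split gave 193 Six3-low cells with *Six3* at 90.0 CPM, and 908 other cells at 147 CPM, against 231 CPM in control cells. The other part was thus low in *Six3* itself, and the split does not separate cells with and without *Six3* there. *Sfrp2* stood at 357 CPM in the Six3-low and 235 CPM in the other cells, against 1158 CPM in control cells, and *Axin2* at 22.0 and 23.4 CPM.

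Whether single cells carried several of these transcripts was counted after thinning. Of 125 DKO cells with naive markers and an *Axin2* UMI, 9.60% (5.06% to 16.2%) also had a *Lef1* UMI, against 3.32% (2.73% to 4.0%) of the 3223 cells without *Axin2*. *Sfrp2* was present in 56.0% (46.8% to 64.9%) of the cells with *Axin2* and 65.2% (63.5% to 66.8%) of those without. Of 119 cells with a *Lef1* UMI 47.1% (37.9% to 56.4%) had *Sfrp2*, against 65.5% (63.8% to 67.1%) of those without. The counting intervals did not overlap for *Lef1* by *Axin2* or for *Sfrp2* by *Lef1*, and they overlapped for *Sfrp2* by *Axin2*. The control library had 16 cells with *Axin2*, of which 0 had *Lef1*, and no difference was detectable there at this depth. Cells of 1 library are not replicates, and depth and free RNA are shared by the genes of a cell.

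The other genes of the pathway were described from lists of 87 genes. In naive-like cells 58 were measured, of which 1 was lower and 10 were higher past 2-fold, against 1.11% and 2.83% of all genes. The largest ratio was that of *Wls*, the carrier that brings Wnt ligands to the cell surface, with 27 UMIs in the control and 2118 in the DKO library, or 1.12 and 97.8 CPM, a ratio of 6.45 (5.91 to 7.06). *Wnt7b*, a ligand, had 9 and 288 UMIs, or 0.373 and 13.3 CPM, and *Rspo1*, which amplifies Wnt signalling, 6 and 44 UMIs. Of 19 ligands 5 were measured and 2 were higher, the other being *Wnt16* with 15 and 51 UMIs. Of 7 genes for secretion and agonists 5 were measured and 3 were higher, with *Rspo3* at 12 and 71 UMIs. Of the 10 measured genes on these 2 lists, none was past 2-fold lower. Those that were higher had at most 27 control UMIs each. They were measured through the DKO library and could only be called higher.

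Of 21 receptor genes 19 were measured in naive-like cells, 1 was lower and 3 were higher. *Lgr5*, a receptor for R-spondins that is itself a known Wnt target, was the lower one, at 33.1 and 6.19 CPM, a ratio of -2.42 (-2.70 to -2.16). *Fzd1* was among the higher ones, at 16.2 and 50.3 CPM, with *Fzd10* and *Ror2*, while *Fzd5* had 142 and 86.4 CPM, a ratio of -0.72. None of the 16 measured cytoplasmic and nuclear genes was past 2-fold, and their median ratio was 0.08. *Ctnnb1*, which encodes beta-catenin, stood at 308 and 342 CPM. Of 13 other antagonists 7 were measured and 1 was higher, *Draxin*, at 8.03 and 19.0 CPM, while *Tpbg* had 44.6 and 29.2 CPM. Of 15 other response genes 9 were measured. *Tnfrsf19* was higher, at 2.32 and 17.8 CPM, and *Lgr5*, which is on this list too, was lower. On the list of other response genes 1 was thus lower and 1 higher.

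**Figure D5:**
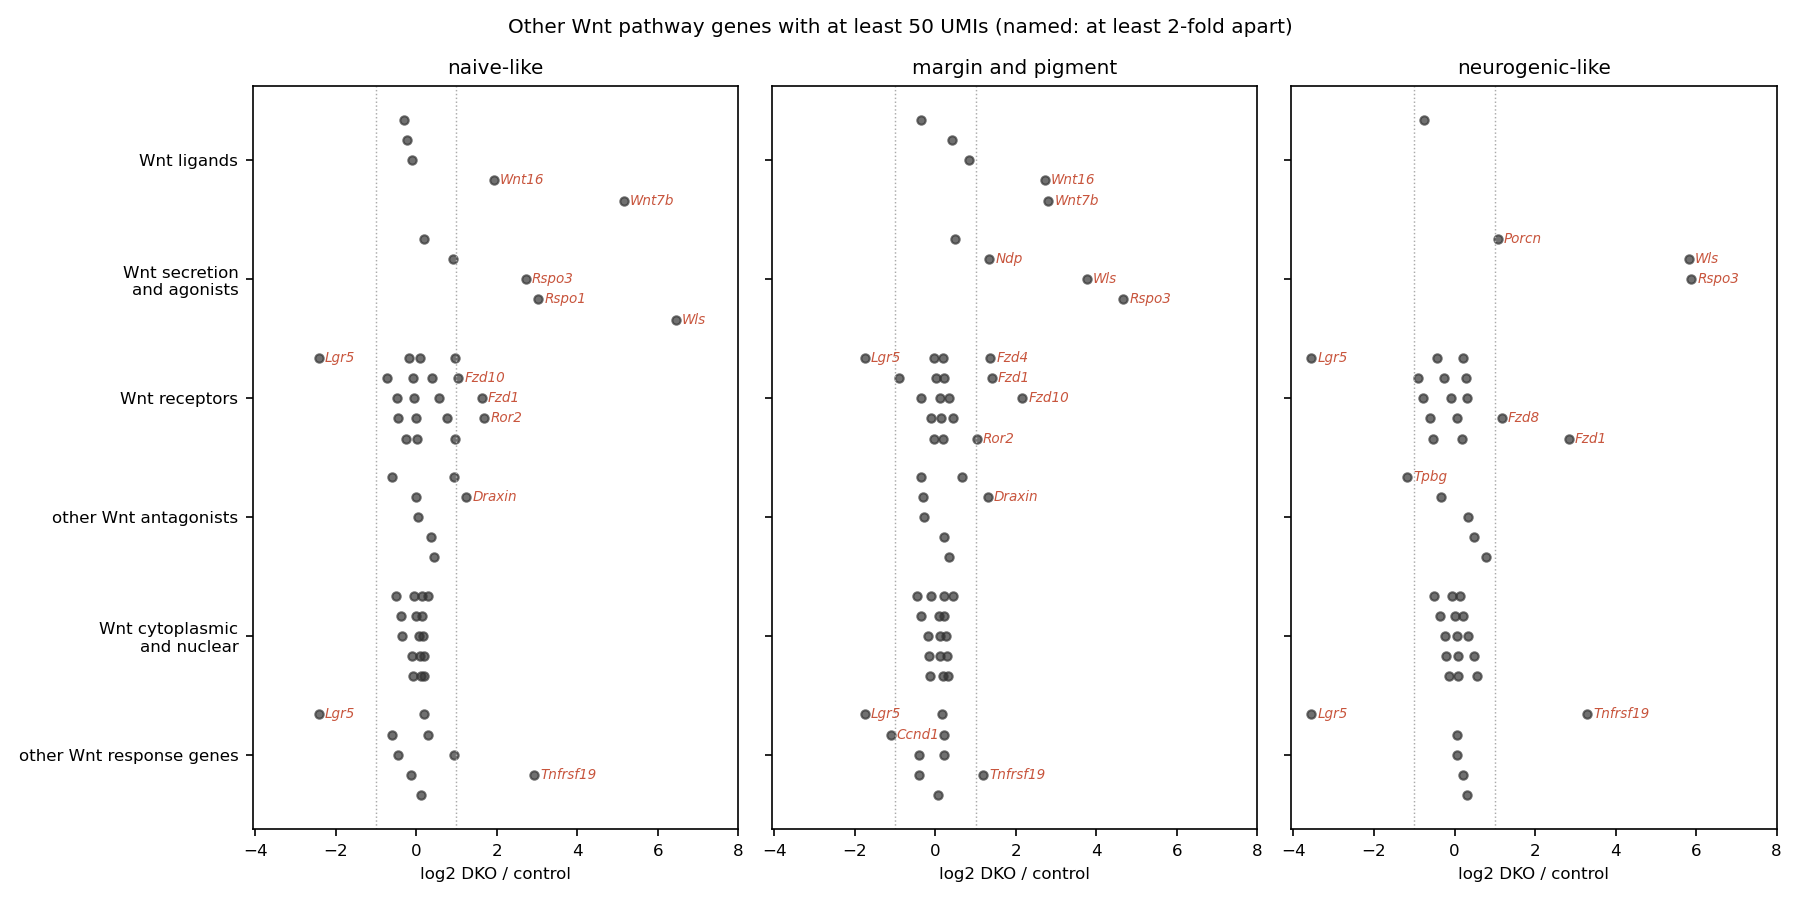
Log2 DKO over control ratio (horizontal axis) of the other Wnt pathway genes with at least 50 UMIs, by list (vertical axis), in naive-like, margin and pigment and neurogenic-like cells; each point is a gene and those past 2-fold are named. The cytoplasmic and nuclear genes lie within 2-fold in all 3 classes, *Wls* and *Rspo3* lie far to the right, and *Lgr5* lies to the left.

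In margin and pigment cells 56 of the 87 genes were measured, 2 lower and 11 higher, against 1.39% and 2.93% of all genes. *Wls* had 28.7 and 391 CPM, *Rspo3* 0.718 and 18.2 CPM, and *Wnt7b* 0.718 and 5.01 CPM, while *Lgr5* had 17.7 and 5.23 CPM, *Ccnd1*, a cyclin of G1, 659 and 305 CPM, and *Fzd5* 116 and 62.0 CPM. In neurogenic-like cells 44 were measured, 2 lower and 6 higher (1.47% and 3.31% of all genes). *Rspo3* had 0.627 and 37.1 CPM, *Wls* 0.418 and 23.5 CPM, and *Tnfrsf19* 0.523 and 5.13 CPM, while *Lgr5* had 29.5 and 2.51 CPM, *Tpbg* 25.0 and 11.1 CPM, and *Fzd5* 56.4 and 30.1 CPM. *Wls* was thus higher and *Lgr5* lower in each of these progenitor classes. In neurogenic-like cells *Rspo3*, *Wls* and *Tnfrsf19* had 6, 4 and 5 control UMIs. In margin and pigment cells *Rspo3* and *Wnt7b* had 6 each. In these cases the genes were measured through the DKO library and could only be called higher. In ganglion-like cells 39 were measured, 3 lower and 3 higher (1.29% and 3.84%). The 3 higher ones had 6 (*Rspo3*), 2 (*Wls*) and 27 (*Fzd1*) control UMIs and could only be called higher. *Rspo3* had 0.678 and 15.6 CPM, *Wls* 0.226 and 3.61 CPM from 2 and 55 UMIs (ratio 4.0, 2.08 to 7.08), and *Fzd1* 3.05 and 18.5 CPM, while *Lgr5* had 15.6 and 4.67 CPM, *Ptk7* 13.0 and 5.98 CPM, and *Lrp5*, the co-receptor, 8.36 and 4.07 CPM.

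In lens-like cells 42 were measured, 1 lower and 3 higher (1.55% and 2.47% of all genes). *Draxin* had 20.9 and 49.9 CPM, *Wls* 80.2 and 169 CPM, and *Fzd2* 13.9 and 28.4 CPM, while *Rspo1* had 17.0 and 3.12 CPM, *Kremen1* 10.9 and 8.42 CPM, and *Fzd5* 11.7 and 10.3 CPM. The *Wls* ratio there, 1.07, was far below that of the progenitor classes. In amacrine- or horizontal-like cells 16 were measured, 1 lower and 0 higher (1.27% and 1.25%), and the lower one was *Ryk*, at 108 and 47.5 CPM. *Ctnnb1* had 483 and 295 CPM, *Ccnd1* 191 and 123 CPM, *Apc* 149.6 and 239.95 CPM, *Igfbp4* 66.9 and 81.6 CPM, and *Dvl3* 94.01 and 112 CPM, all within 2-fold.

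Over the 18 control clusters with at least 50 cells, the genes most like each member in log2(CPM + 1) were found among 11138 genes. For *Sfrp2* they were *Gm26771* (r = 0.98), *Itm2a* (0.97) and *Ccnd1* (0.96), and for *Dkk3* *Smo* (0.97), *Nectin3* (0.96) and *Cdh4* (0.96). *Sfrp1* was most like *Gstm1* (0.94), *Rilpl1* (0.93) and *Cpxm1* (0.92), and *Nkd1* most like *Lrrc42*, *Igf2bp2* and *Ttc8* (0.98 each). The sparser genes had looser neighbours. *Lef1* was most like *Tpd52l1* (0.90), *Hsd17b11* (0.86) and *Diaph2* (0.85), *Axin2* most like *Cyp4f16* (0.85), *Kremen1* (0.85) and *Hhip* (0.83), and *Notum* most like *Ptx3* (0.82), *Il17rd* (0.81) and *Tfap2b* (0.77). These clusters share 1 library and differ in depth, so the correlations are a description.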

How the data were processed

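The authors deposited, for each of 2 libraries, a matrix of UMI counts with genes as rows and called cells as columns, made with the 10x Genomics Single Cell 3′ kit after papain dissociation. The submitters' processing notes name Cell Ranger 3.1.0 and mm10. The counts were whole numbers without normalization. Cells with over 200 and under 6000 genes and under 20% mitochondrial UMIs were kept and integrated, and clustered on 20 dimensions at resolution 0.5, as the study's methods state. This was done in Seurat 5.3.0 (R 4.3.3), a later version than the study's, on 2000 features, with an OpenBLAS kernel fixed to single-thread use. The 10 genes, the other Wnt genes, genes named by the study, hemoglobin genes and sex-linked genes were left out of the clustering features, unlike in the study.

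A class name needed 3 markers and 75% of its markers above the other cells, and no more leading markers of another class among the 10 leading genes. Clusters of low UMIs, and, by rules set after the clusters were seen, a cluster with over 50% called doublets and one with markers of a class outside the eye, were left unnamed too, and the cluster with margin and pigment markers was named for both. Scrublet, run through scanpy 1.11.5, scored doublets. Its own threshold called 0 control cells, so the lower threshold of 0.222 was used for both libraries. It called 283 control (2.88%) and 360 DKO cells (2.96%), which were kept. Levels have exact Poisson intervals, shares exact binomial intervals and ratios the interval of the binomial split of UMIs (Python 3.11.15, numpy 2.4.6, scipy 1.17.1, pandas 2.3.3, matplotlib 3.10.9). The script was tested on simulated data. A gene was measured with at least 50 UMIs in the libraries together and called past the fold at 2-fold. A gene with few UMIs in 1 library was measured only where the other was high, so it could be called in 1 direction only. The shares over all genes follow the same rule. Gene positions are from a GENCODE annotation of GRCm38, the assembly named mm10.

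All 10 genes are named in the text, but not every gene in every comparison. Of the other pathway genes, the 3 highest and 3 lowest ratios per class are named, and further ones were named after their values were seen. The 3 most similar genes are given for members with at least 100 UMIs in control retinal cells, among genes with at least 200 UMIs. The genes, lists and rules were chosen with earlier results of these data known. The authors' Cre counts, bulk RNA-seq and in situ hybridization were not used here.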

Additional observations from a re-analysis of the deposited data

Results flagged for a closer look

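*Sfrp2* differed in direction between cell classes. Its log2 DKO over control ratio was -2.34 in amacrine- or horizontal-like cells, from 152 control and 35 DKO UMIs, and 0.25 in lens-like cells, from 1317 and 1217 UMIs, with counting intervals on either side of 0. Relative to the median of all genes in lens-like cells, the second value was 0.08, with an interval that included 0, and without integration it was -0.11. In amacrine- or horizontal-like DKO cells *Sfrp2* stood at 42.6 CPM, below the 89.2 CPM of macrophage-like DKO cells. The part of free RNA there was not tested. *Dkk3* differed in the reverse sense, with -0.85 in lens-like cells and 0.32 in ganglion-like cells, the latter 0.05 when the doublet-rich cluster was added. With Six3-low DKO cells only it was -0.36 (-1.68 to 0.70), from 7 DKO UMIs, an interval that includes 0. With 1 library per genotype, the difference between classes was not tested for either gene.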

How the results depend on the processing

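No paired analysis was possible because the control and the DKO group held 1 library each. In naive-like cells *Axin2* (2.30 to 3.70) and *Lef1* (1.40 to 2.80) stayed past 2-fold higher in 13 of 13 alternatives and *Wif1* (5.06 to 5.63) in the 9 that gave it a value. Not every alternative could move a ratio. A lower UMI limit leaves it unchanged, and scaling by the median ratio shifts it by 0.02 in these cells. With Six3-low DKO cells only, *Wif1* had 3 control and 20 DKO UMIs and was not measured. The further alternatives without a *Wif1* value had under 50 UMIs of it, or none in 1 library. *Sfrp2* (-1.89 to -0.77) stayed negative in 13 and past 2-fold in 11. *Axin2* stayed past 2-fold higher in 10 of 10 alternatives in neurogenic-like and 11 of 11 in ganglion-like cells, and *Nkd1* and *Notum* kept their call in 10 of 11 in neurogenic-like cells. With Six3-low DKO cells only, *Axin2* had 5 and 4 DKO UMIs in these classes and was not measured. The number of genes past 2-fold lower in naive-like cells was 0 at resolution 1 and 0 without integration, and 2 (*Sfrp2* and *Notum*) with Six3-low DKO cells only, where *Notum* had 1 DKO UMI. With Six3-low cells only, 47 neurogenic-like DKO cells were left, in which *Six3* itself stood at 253 CPM, and the genes lower and higher numbered 0 and 1. For 38 ganglion-like cells they numbered 1 and 0, and with the doublet-rich cluster added 1 was lower, *Sfrp2* in each case. The call in the 38 cells rested on 4 DKO UMIs of *Sfrp2*. In margin and pigment cells 6 ratios changed sign without integration, those past 2-fold being *Sfrp2*, to 1.91, *Wif1*, to -2.13, and *Axin2*, to -0.37, and the others *Sfrp1* (-1.32), *Dkk3* (1.92) and *Lef1* (-0.72), where 43 control cells were compared with 1398 DKO cells. In lens-like cells *Dkk3* was past 2-fold lower, at -1.02, when scaled by the median ratio. The alternatives that added clusters, and all those for margin and pigment and lens-like cells, were chosen after seeing the data. Depth limits the sparse genes most. *Wif1* had 3 control UMIs in naive-like cells, so its ratio is known only within 3.86 to 7.74, and *Notum* and *Dkk2* could not be placed on either side of 0 there.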
